A study of Sus scrofa with 18 samples.

Results

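The microRNAs (miRNAs) ssc-miR-146a-5p, ssc-miR-146b, ssc-miR-155-5p, ssc-miR-132 and ssc-miR-212, written below without the species prefix ssc, were examined in the backfat of pigs. They were chosen by name, as miRNAs known from other systems to be induced by inflammatory signals. The choice was made with earlier results of these data known. Every entry of the deposited count table under one of these names was taken. The names matched 5 of the 240 mature miRNAs in the table and 200 of its 16636 distinct read sequences. All 5 had enough counts to be tested, among 221 tested miRNAs.

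Small RNA was sequenced from 18 pigs of the Italian Large White breed, 1 library each, and the tissue was backfat, which is subcutaneous fat. The high backfat class held 5 castrated males and 4 females, and the low backfat class held 4 castrated males and 5 females. All pigs weighed 150 to 160 kg, were kept in one environment on one diet and were sampled at a slaughterhouse, and the labels name no treatment of any group. High-backfat pigs were 241 ± 4.47 and low-backfat pigs 243 ± 6.04 days old (SD, 9 per class). Each library has an animal number of its own in the labels and was treated as 1 animal. In whole tissue, fewer cells of a type and less RNA per cell cannot be told apart.

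Library totals ran from 9601510 to 34588252 counts, and the 4 libraries under 15000000 counts all came from castrated males, 2 of the high and 2 of the low class. The mesenchymal and fat-associated miRNAs that were listed (miR-143, miR-145, miR-199a, miR-199b and miR-214) summed to 175031 to 251364 counts per 1000000 (CPM) in high castrated males and 190538 to 221020 CPM in low castrated males. The leukocyte miRNAs miR-142-3p, miR-142-5p and miR-150 summed to 1633 to 3386 CPM in high castrated males and 1402 to 3037 CPM in low castrated males. Skeletal muscle miRNAs summed to 48.3 to 65.6 CPM in high castrated males and 98.3 to 216 CPM in low castrated males, without overlap. CPM here are taken after TMM scaling, which corrects library totals for differences in composition.

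In human and mouse cells, miR-146a and miR-146b are switched on by NF-kB downstream of Toll-like and cytokine receptors and repress the adaptors IRAK1 and TRAF6, which closes a negative feedback loop on that signalling. miR-155 is induced in activated macrophages and lymphocytes and promotes inflammatory responses, in part by repressing SOCS1. miR-132 and miR-212 come from one locus that is switched on through the factor CREB, and in endothelial cells and adipose tissue miR-132 has been studied in relation to inflammation and angiogenesis. In adipose tissue these miRNAs can be made both by adipocytes and by the immune and vascular cells between them.

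The mature sequences are shown because a miRNA selects its targets mainly through the seed, bases 2 to 8, which is in capitals. They are the exact-match sequences of the deposited table, written 5′ to 3′ with T for U.
miR-146a-5p: tGAGAACTgaattccatgggtt
miR-146b: tGAGAACTgaattccataggc
miR-155-5p: tTAATGCTaattgtgatagggg
miR-132: tAACAGTCtacagccatggtcg
miR-212: aCCTTGGCtctagactgcttact

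miR-146a-5p and miR-146b had the same seed, and no other exact-match sequence in the table carried it. miR-155-5p, miR-132 and miR-212 each had a seed that no other listed miRNA shared. The sequence under miR-212 is not the arm that, in human, carries the miR-132 seed. MIR132 and MIR212 neighbour each other in the RefSeq annotation of Sscrofa11.1, a later build than the one the files use.

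The 5 miRNAs covered a wide range of levels. miR-146a-5p was the most abundant, with 729 CPM in its lowest library, a median of 1616 CPM and 2439 CPM in its highest, and ranked 42 of 240 by mean CPM. miR-146b (mean 211.7 CPM, rank 87) and miR-155-5p (mean 187 CPM, rank 94) followed, and their ranges overlapped. miR-132 averaged 67.6 CPM (rank 125) and miR-212 averaged 1.99 CPM (rank 207). All mature sequences are 21 to 23 bases long, so read counts were compared without a length correction. How well each sequence entered the libraries was not measured. Every read sequence listed under miR-146a-5p had an even total over the libraries, except the sequence also listed under miR-146b. The other members had both odd and even totals. Whether reads of miR-146a-5p were counted more than once in the deposited counts was not tested. If they were, its CPM and rank are too high.

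The spread across pigs also differed. miR-146b was 19.7 times as high in its highest library as in its lowest, against 3.73 times for miR-132, 3.35 times for miR-146a-5p and 2.77 times for miR-155-5p. By the SD of log2 CPM, miR-146b ranked 25, miR-146a-5p 76 and miR-132 111 of the 221 tested miRNAs, counted from the most variable, and miR-155-5p ranked below them. miR-212 had 793 reads over all libraries and was listed at 0 in 2 of 18. Low counts are absent from the table (the lowest count above 0 listed for miR-212 was 11). A listed 0 therefore does not show absence, and the count minimum behind it is not stated.

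**Figure D1:**
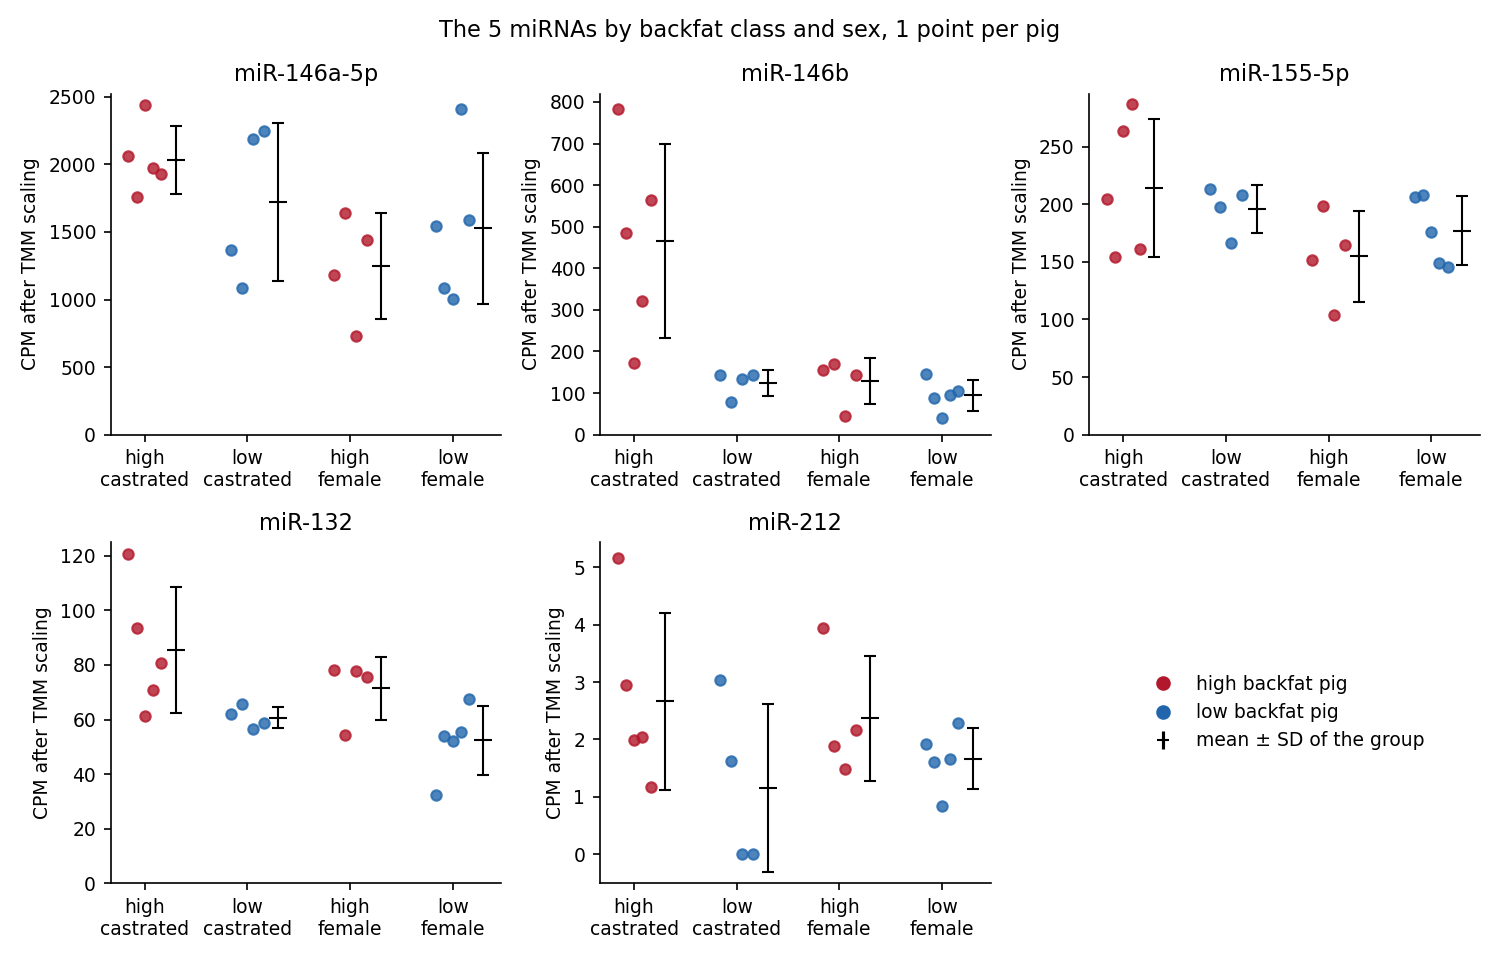
CPM after TMM scaling (vertical axes, linear) of the 5 miRNAs in each pig (points), by backfat class and sex, with the mean ± SD of each group (bars). The 5 high castrated males lie between 172 and 783 CPM for miR-146b, above all 4 low castrated males (77.6 to 143 CPM), while the groups overlap for the other 4 miRNAs.

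miR-146b was the 1 of the 5 miRNAs that passed the test, and it did so among castrated males. Its CPM in the 5 high castrated males were 783, 484, 172, 322 and 563, in the order of their replicate numbers. The 4 low castrated males had 143, 77.6, 134.5 and 142 CPM. Every high castrated male was above every low castrated male, and the lowest of the high animals, replicate 5, was close to the low group. Means were 465 ± 233 CPM in high and 125 ± 31.5 CPM in low castrated males (SD, n = 5 and 4), and the log2 fold change was 1.90 ± 0.44 (SE; edgeR's quasi-likelihood test, Benjamini-Hochberg adjusted p = 0.0204 over 221 miRNAs). In this comparison 4.07% of all tested miRNAs were called, 2.26% were called higher and 3.62% had all high castrated males above all low ones. miR-146b is 1 of the 9 miRNAs called, 1 of the 5 called higher and 1 of the 8 without overlap.

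The size of the difference was also read within sets of libraries that held both classes of castrated males. Its direction there was already given by the lack of overlap. Library codes in the labels fall into 4 runs of consecutive codes, which are not stated to be batches. Between castrated males, log2 CPM of miR-146b was higher in the high class by 2.02 in the run AC485-AC488 (1 against 2 pigs), by 2.64 in the run U074-U077 (1 against 1) and by 2.45 in the run U966-U969 (1 against 1). The run U134-U139 held no low castrated male, and its high castrated males, replicates 5 and 8, were the lowest of their group (172 and 322 CPM). The values within runs therefore rest on the high castrated males with 783, 563 and 484 CPM. With the run as a term the log2 fold change was 2.19 ± 0.36 (edgeR adjusted p = 0.00387).

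The call depended on which libraries entered. It was lost without high replicate 1 (edgeR adjusted p = 0.062), low replicate 4 (0.0573) or low replicate 9 (0.0505), with log2 fold changes of 1.64 to 2.11 over all 18 fits that left out 1 library. Without the 4 libraries under 15000000 counts, which left 3 high and 2 low castrated males, it was 1.58 ± 0.61 (edgeR adjusted p = 0.461).

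Among females, miR-146b had 155.2, 169, 46.0 and 144 CPM in the 4 high pigs, by replicate number. The 5 low females had 145, 87.7, 39.8, 95.5 and 105 CPM. The ranges overlapped, and the log2 fold change was 0.44 ± 0.41 (edgeR adjusted p = 0.671). In females edgeR called 0 of 221 miRNAs (0% called), with 20 at an unadjusted p under 0.05, and DESeq2 also called 0. The difference between the fold changes in castrated males and in females was 1.46 ± 0.60 on the log2 scale, with an unadjusted p of 0.0252 in edgeR and an adjusted p of 0.429, so a difference between the sexes was not established. For that difference edgeR called 0 of 221 miRNAs (0% called), with 25 at an unadjusted p under 0.05, and DESeq2 called 3, none of them one of the 5.

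Over both sexes, with sex as a covariate, miR-146b had a lowest, median and highest value of 46.0, 172 and 783 CPM among high pigs. Among low pigs these were 39.8, 105 and 145 CPM. Of the 9 high pigs, 7 were above the highest low pig and high replicate 6 was below the low median. High pigs averaged 315 ± 244 CPM and low pigs 108 ± 36.5 CPM (SD, 9 per class), and the log2 fold change was 1.17 ± 0.35 (edgeR adjusted p = 0.0705). That comparison called 3.62% of all tested miRNAs, and the threshold was passed under some alternatives, among them DESeq2 (1.18, adjusted p = 0.00795) and a term for the library-code runs (1.35, edgeR adjusted p = 0.0484).

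miR-146a-5p, which shares its seed with miR-146b, did not pass in any comparison. High castrated males had 2061, 1761, 2439, 1970 and 1927 CPM. Low castrated males had 1366, 1086, 2186 and 2248 CPM, a group that fell into a lower and a higher pair. The higher pair, replicates 7 and 9, came from the run AC485-AC488 and had under 15000000 counts each. The lower pair came from other runs with more counts, and the part of run or depth in this split was not tested. The high and low castrated males overlapped, and the log2 fold change was 0.24 ± 0.27 (edgeR adjusted p = 0.581). High females had 1184, 1641, 729 and 1443 CPM. Low females had 1543, 1085, 1005, 2410 and 1592 CPM, with a log2 fold change of -0.29 ± 0.27 (edgeR adjusted p = 0.671). Over both sexes high pigs averaged 1684 ± 510 CPM and low pigs 1613 ± 543 CPM (SD, 9 per class), with a log2 fold change of -0.03 ± 0.20 (edgeR adjusted p = 0.93), and its sign changed with the processing.

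Within the high class, the castrated males were above the females for both miR-146 members. The lowest high castrated male had 1761 CPM of miR-146a-5p, against 1641 CPM in the highest high female. For miR-146b these were 172 and 169 CPM. Among all tested miRNAs, 2.71% (6 of 221) had every high castrated male above every high female. Over both classes, with class as a covariate, castrated males had log2 fold changes over females of 1.13 ± 0.35 for miR-146b (edgeR adjusted p = 0.434), 0.44 ± 0.20 for miR-146a-5p (0.598), 0.31 ± 0.15 for miR-155-5p (0.598), 0.24 ± 0.15 for miR-132 (0.628) and -0.12 ± 0.54 for miR-212 (0.952). In that comparison edgeR called 0 of 221 miRNAs (0% called), with 17 at an unadjusted p under 0.05, and DESeq2 called 0.

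The balance between the 2 miR-146 members was also compared, as the share of miR-146b in the reads of both, a value that does not depend on scaling between libraries and that was chosen after the fold changes were known. In high castrated males miR-146b made up 27.5%, 21.5%, 6.58%, 14.0% and 22.6% of these reads. In low castrated males it made up 9.50%, 6.67%, 5.79% and 5.96%. High replicate 5 lay within the low range and the other 4 high animals above it. Means were 18.5 ± 8.21% in high and 6.98 ± 1.72% in low castrated males (SD, n = 5 and 4), a difference of 11.5 percentage points (exact two-sided permutation p = 0.0476, where the smallest possible is 0.0159). In females the mean shares were 8.99 ± 2.32% in high and 5.98 ± 2.15% in low animals (SD, n = 4 and 5, exact two-sided permutation p = 0.0952). Over both sexes they were 14.3 ± 7.79% in high and 6.42 ± 1.93% in low animals (SD, 9 per class, exact two-sided permutation p = 0.00424). These 3 p-values are not adjusted, and the test over both sexes took no account of sex, unlike the fits. The share uses the miR-146b reads that the fits above had already shown to differ. If reads of miR-146a-5p were counted more than once in the deposited counts, which was not tested, all these shares are too low.

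**Figure D2:**
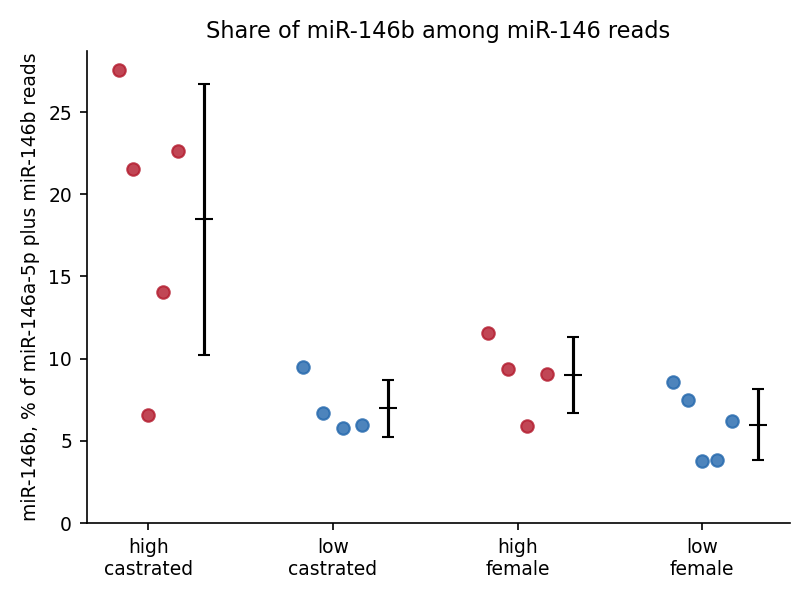
Share of miR-146b in the summed reads of miR-146a-5p and miR-146b (vertical axis, percent) in each pig (points), by backfat class and sex, with the mean ± SD of each group (bars). High castrated males run from 6.58% to 27.5%, and 4 of the 5 lie above the highest low castrated male (9.50%).

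miR-155-5p was the least variable of the 5 and did not differ between the classes beyond the spread. High castrated males had 204, 154.6, 264, 287 and 161 CPM. Low castrated males had 213, 197, 166 and 208 CPM, within the range of the high animals. The log2 fold change was 0.13 ± 0.21 (edgeR adjusted p = 0.742). High females had 152, 199, 104 and 164 CPM. Low females had 207, 208, 176, 149 and 145 CPM, and the groups overlapped with a log2 fold change of -0.20 ± 0.21 (edgeR adjusted p = 0.695). Over both sexes high pigs averaged 188 ± 57.8 CPM and low pigs 186 ± 26.8 CPM (SD, 9 per class), and the log2 fold change was -0.03 ± 0.15 (edgeR adjusted p = 0.897).

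miR-132 was higher in the high class by similar amounts in both sexes, without passing the test. High castrated males had 121, 93.5, 61.1, 70.8 and 80.8 CPM. Low castrated males had 62.0, 65.5, 56.6 and 58.7 CPM, so that 4 of the 5 high animals were above the highest low one. High females had 78.2, 54.2, 78.0 and 75.5 CPM. Low females had 32.3, 54.0, 52.3, 55.3 and 67.7 CPM, and 3 of the 4 high females were above the highest of them. The log2 fold change was 0.49 ± 0.21 in castrated males (edgeR adjusted p = 0.2) and 0.45 ± 0.21 in females (0.509). Over both sexes high pigs averaged 79.2 ± 19.3 CPM and low pigs 56.0 ± 10.3 CPM (SD, 9 per class). The log2 fold change was 0.47 ± 0.15 with an unadjusted p of 0.0046 and an adjusted p of 0.0705 in edgeR. DESeq2 gave 0.48 with an adjusted p of 0.0288. The difference had the same direction in all 4 runs of library codes, by 0.26 to 1.12 on the log2 scale.

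miR-212, the neighbour of miR-132, was near the lower limit of the table. High castrated males had 5.16, 2.94, 1.99, 2.04 and 1.17 CPM. Low castrated males had 3.03 and 1.62 CPM in replicates 2 and 4, and replicates 7 and 9 were listed at 0. High females had 3.93, 1.89, 1.48 and 2.17 CPM. Low females had 1.92, 1.61, 0.838, 1.66 and 2.28 CPM, and the classes overlapped in both sexes. The log2 fold change over both sexes was 0.80 ± 0.54 (edgeR adjusted p = 0.363), and fold changes at such counts depend on the prior count. In the 16 libraries with both miRNAs listed, miR-132 had 16.8 to 69.0 reads for each read of miR-212.

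**Figure D3:**
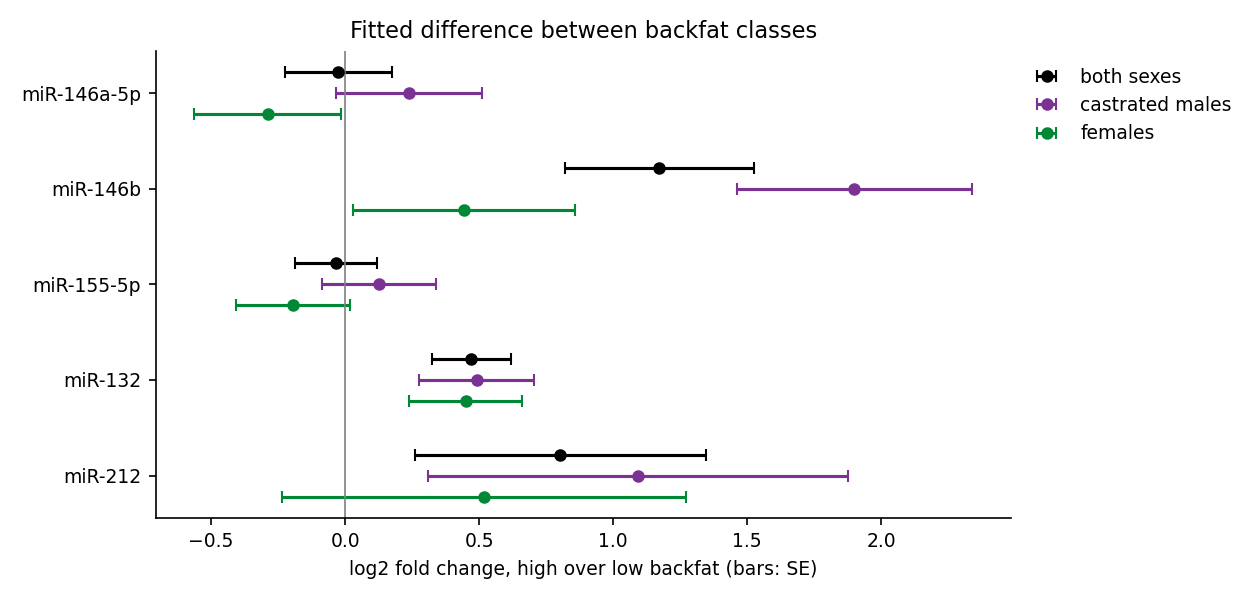
Fitted log2 fold change of high over low backfat (horizontal axis) for each of the 5 miRNAs (rows), with SE bars, over both sexes and within castrated males and females (colours). miR-146b in castrated males (1.90 ± 0.44) is the 1 value that passed the test, and miR-132 has nearly the same value in all 3 fits.

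The reads of each miRNA were a mixture of forms, and the leading form of 2 of them was not the annotated sequence. The forms below are examples of the more abundant other forms. Capitals mark bases beyond the annotated sequence.
miR-146b, 24 bases: tgagaactgaattccataggcTGT
miR-146b, 23 bases: tgagaactgaattccataggcTG
miR-155-5p, 23 bases: ttaatgctaattgtgataggggT
miR-155-5p, 24 bases: ttaatgctaattgtgataggggTT
miR-132, 23 bases: taacagtctacagccatggtcgT
miR-146a-5p, 23 bases: tgagaactgaattccatgggttT
miR-146a-5p, 23 bases: tgagaactgaattccatgggttA
miR-146a-5p, 22 bases: Ttgagaactgaattccatgggt

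The annotated sequence held 0.975% of miR-146b reads and 8.09% of miR-155-5p reads, while longer forms that match the precursor held 89.7% and 73.1% of them. Counting exact matches alone would therefore drop nearly all miR-146b reads. For miR-146a-5p the annotated sequence held 48.7%, for miR-132 44.6% and for miR-212 98.6%. An added T at the 3′ end that does not match the precursor made up 43.5% of miR-132 reads and 15.4% of miR-146a-5p reads, and an added A 14.5% of miR-146a-5p reads. In the last form of the list the read starts 1 base earlier, so the seed is shifted. Such matching forms with a shifted 5′ end held 4.06% of miR-146a-5p reads, 2.21% of miR-132 reads and 0.0481% of miR-146b reads.

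**Figure D4:**
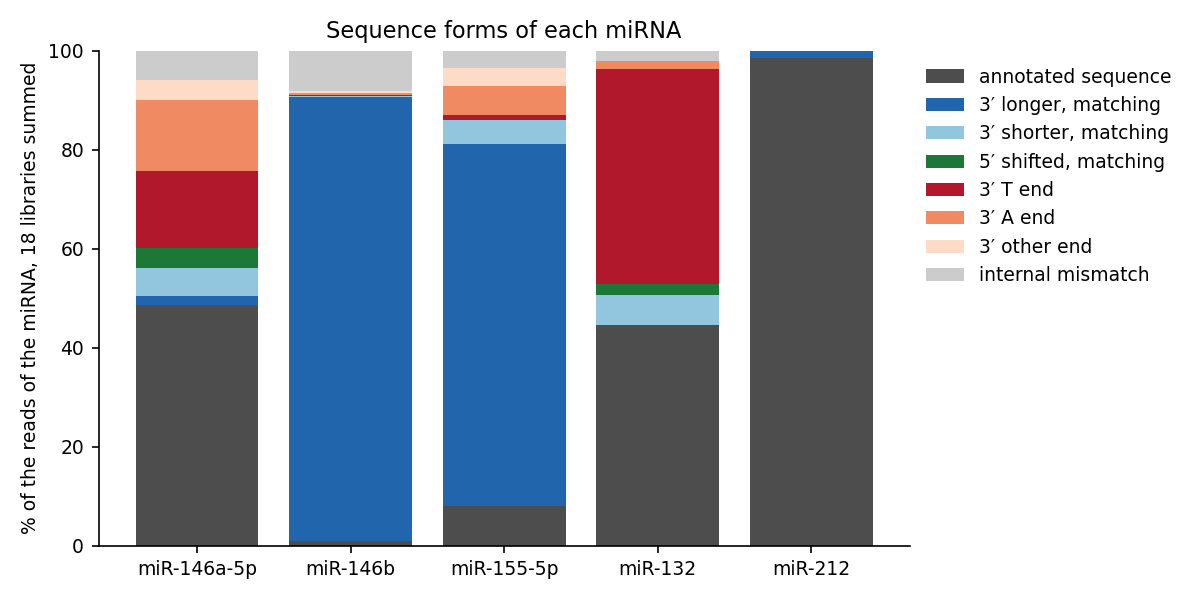
Share of each kind of sequence form (stacked bars, percent of the reads of a miRNA, 18 libraries summed) for the 5 miRNAs. Longer matching forms hold 89.7% of miR-146b and 73.1% of miR-155-5p reads, and forms with an added 3′ T hold 43.5% of miR-132 reads.

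Counted from the 5′ end over 22 bases, the 24-base form of miR-146b differed from miR-146a-5p by 2 substitutions, G18A and T21C. Reads of these miRNAs can therefore be told apart only near the 3′ end. A single read sequence was listed under both, with 0.00574% of miR-146a-5p reads and 0.0240% of miR-146b reads. Its total was 35 under miR-146a-5p and 17 under miR-146b, and the cause of these unequal totals was not tested.

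Internal mismatches held 8.20% of miR-146b, 5.90% of miR-146a-5p, 3.58% of miR-155-5p and 2.05% of miR-132 reads. The substitution A10C was listed in miR-146a-5p, miR-146b, miR-155-5p and miR-132, in 8 libraries for all 4 and in 10 libraries for at least 1. Of those 8 libraries, 3 came from high and 3 from low castrated males. A3T was listed in the same 4 miRNAs, and A6C in both miR-146 members. Without any mismatched form, miR-146b still had a log2 fold change of 1.90 ± 0.43 in castrated males (edgeR adjusted p = 0.016).

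Single forms were also tested among 7330 entries of the table. In castrated males 0.164% of all entries were called, none of them a form of the 5 miRNAs. The 24-base form of miR-146b had a log2 fold change of 1.82 ± 0.46 (edgeR adjusted p = 0.152) and the 23-base form 1.71 ± 0.42 (0.136). All 10 tested forms of miR-146b had positive values, with a median of 1.77, and 6 had an unadjusted p under 0.05, as did 600 of all 7330 entries in castrated males. They share libraries and a precursor and are not independent. They are also parts of the sum that was already called, so their common sign adds no support. The miR-146b forms tested were 10 of 39 listed. The filter went by class, so a form could enter through counts in the high class alone. All 7 tested forms of miR-132 were positive as well, with a median of 0.51, against 7 of 19 for miR-155-5p (median -0.07) and 27 of 39 for miR-146a-5p (median 0.15). Over both sexes edgeR called 0 of 7330 entries (0% called), with 643 at an unadjusted p under 0.05.

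For each miRNA except miR-212, the share of the most abundant form other than the annotated sequence was compared between the classes. None passed after adjustment over the 4 shares, and the tests over both sexes took no account of sex. The 24-base form of miR-146b held 52.8 ± 3.94% of its reads in high and 49.8 ± 3.37% in low animals (SD, 9 per class, exact two-sided permutation, adjusted p = 0.216 over 4 shares). The added T of miR-132 held 38.1 ± 4.07% in high and 42.0 ± 4.86% in low animals (SD, 9 per class, exact two-sided permutation, adjusted p = 0.216). Among castrated males this share was 29.9 to 39.1% in high and 39.2 to 50.0% in low animals, which just missed overlap, with an exact two-sided permutation p of 0.0159, the smallest possible, and an adjusted p of 0.0635. The shares of miR-146a-5p with an added T and of the 23-base form of miR-155-5p differed by -1.05 and -1.27 percentage points between high and low castrated males (exact two-sided permutation, adjusted p = 0.614 and 0.651).

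Across the 18 libraries, log2 CPM of miR-146a-5p and miR-146b correlated with Pearson's r = 0.607 (permutation p = 0.0075, adjusted p = 0.045 over 6 pairs) and Spearman's rho = 0.529 (permutation p = 0.0259, adjusted p = 0.0897). Without the 2 libraries farthest from the median of miR-146a-5p, r was 0.386, without a test. Within groups r was 0.758 among high and 0.621 among low animals, and 0.375 in castrated males and 0.604 in females. After class, sex and library-code run were removed, r was 0.725 (permutation, adjusted p = 0.0039). miR-132 and miR-146b had r = 0.543 (permutation p = 0.0204, adjusted p = 0.0613) and rho = 0.517 (permutation p = 0.0299, adjusted p = 0.0897), with r = 0.865 in castrated males and -0.12 in females. For this pair r was 0.016 after class, sex and library-code run were removed (permutation, adjusted p = 0.949). In the other 4 pairs r was between -0.23 and 0.43, and none passed. Values within 1 run of library codes rest on at most 6 libraries, and in the run U134-U139 r was 0.742 for miR-146a-5p with miR-146b.

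The miRNAs whose log2 CPM most resembled each member over the same 18 libraries are given as a description, since all share library depth and class. For miR-146b they were miR-21 (r = 0.816), miR-221-5p (0.690), miR-7 (0.684), miR-221-3p (0.670) and miR-17-5p (0.655). For miR-146a-5p they were miR-148b-5p (0.726), miR-142-5p (0.704), miR-7 (0.699), miR-30e-5p (0.689) and miR-21 (0.687). miR-142-5p is made by blood-derived cells, and it is 1 of 3 tested miRNAs on the leukocyte list. For miR-155-5p they were miR-452 (0.620), miR-142-3p (0.570), miR-374a-5p (0.538), miR-199b-5p (0.536) and miR-374b-3p (0.534). For miR-132 they were miR-365-5p (0.659), miR-15b (0.585), miR-2320-3p (0.566), miR-146b (0.543) and miR-130b (0.498). miR-212 was closest to miR-1306-3p (0.800), let-7e, miR-139-3p, miR-7135-3p and miR-361-3p, with rho between 0.440 and 0.574, lower than r in each case.

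Of 15 tested miRNAs on a list of others linked to inflammation, 2 rose and 0 fell in high against low castrated males, where 2.26% of all 221 tested miRNAs were called higher and 4.07% in either direction. That list was chosen with earlier results of these data known, so its counts and medians are a description only. miR-222, which with miR-221 is known to act on vessel growth and the cell cycle, averaged 336 ± 93.1 CPM in high and 132.5 ± 30.2 CPM in low castrated males (SD, n = 5 and 4), a log2 fold change of 1.34 ± 0.28 (edgeR adjusted p = 0.0107). miR-221-5p averaged 15.3 ± 6.47 CPM in high and 5.39 ± 1.33 CPM in low castrated males (SD, n = 5 and 4), a log2 fold change of 1.504 ± 0.35 (edgeR adjusted p = 0.0204). miR-21, an abundant miRNA raised in many inflamed tissues, averaged 19810 ± 6129 CPM in high and 11894 ± 1958 CPM in low castrated males (SD, n = 5 and 4), with a log2 fold change of 0.74 ± 0.31 (edgeR adjusted p = 0.183). In all, 10 of the 15 values were positive, with a median of 0.29 against -0.01 over all 221 miRNAs. Over both sexes the 3 that passed were miR-221-5p and miR-222, both higher, and miR-181c, which fell by 0.39 on the log2 scale (edgeR adjusted p = 0.0486 for each), against 3.62% of all tested miRNAs called, and the median was 0.09 against -0.03 over all 221. In females 0 of 15 passed, 4 were positive and the median was -0.10. The names miR-223, miR-147, miR-187 and miR-34a matched no entry of the count table, so they could not be analysed.

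Markers of other cells, from lists also chosen with earlier results known, were read beside miR-146b in castrated males. Of the 3 leukocyte miRNAs 0 passed, with log2 fold changes of 0.20 ± 0.31 for miR-142-5p and 0.33 ± 0.34 for miR-150, and their summed level overlapped between the classes as given above. Of the endothelial, red blood cell, neural and epithelial miRNAs 0 passed. On the epithelial list, 2 of 6 names matched entries and 1 miRNA was tested. The log2 fold change was 0.31 ± 0.18 for miR-126-3p and 0.10 ± 0.26 for its other arm, miR-126-5p (endothelial). Log2 fold changes were -0.59 ± 0.36 for miR-451 and 0.33 ± 0.30 for miR-486 (red blood cell). They were 0.31 ± 0.20 for miR-128 and -0.35 ± 0.29 for miR-9 (neural) and -1.62 ± 0.91 for miR-205 (epithelial). Of the 9 mesenchymal and fat-associated miRNAs 0 passed in castrated males, with 0.07 ± 0.18 for miR-143-3p and -0.25 ± 0.18 for miR-199b-3p. Over both sexes miR-199a-3p and miR-199a-5p of that list fell by 0.50 and 0.38 on the log2 scale (edgeR adjusted p = 0.0486 for both), and 1 of the 9 values was positive, with a median of -0.28 against -0.03 over all 221 miRNAs. The muscle miRNAs miR-133a-3p (23.9 ± 4.90 CPM in high and 106 ± 44.3 CPM in low castrated males, SD, n = 5 and 4) and miR-133b fell by 2.14 and 2.93 on the log2 scale (edgeR adjusted p = 0.00423 for both). miR-133b was near the lower limit of the table, with means of 0.370 CPM in high and 2.92 CPM in low castrated males. The part of these other cells in the level of miR-146b was not tested.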

How the data were processed

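Small RNA was sequenced from the backfat of 18 pigs. The authors deposited raw counts, whole numbers of reads per sequence form of each mature miRNA. They also deposited a normalised signal, found here to be those counts over a library's size factor (0.464 to 1.93). Per the submitters' processing notes, Bowtie 0.12.7, HTSeq, DESeq2 1.4.5 and the build Sscrofa10.2 were used, in roles and an order that are not stated. Trimming, mismatch limits and any count minimum were not given in the sources used here. No molecular identifiers are named, so the counts are of reads.

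Columns were matched to samples by animal number and library code, leaving 2 columns of values unused. Each of the 3474 sequences with several listings was counted once per mature miRNA. Summed counts were filtered with filterByExpr (minimum count 10), scaled by TMM and tested with the quasi-likelihood F test of edgeR, adjusting p over the 221 tested miRNAs by Benjamini-Hochberg (threshold 0.05). The class fit had sex as covariate and the sex fit had class, while differences by class inside each sex, and the interaction, came from 1 fit of 4 groups. SE was derived from F, and a prior count of 2 entered log2 CPM. Shares were compared by exact permutation over 48620 (9 against 9, without regard to sex) or 126 (5 against 4) splits, and correlations by 100000 permutations. The fits were tested on simulated data. The p-values rest on the variation between animals and do not measure its size.

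The 5 miRNAs, the marker lists and the inflammation list were chosen with earlier results of these data known. Beside the 5, the text names the 5 miRNAs most correlated with each, and from each list those that passed or the most abundant 2. Alternatives covered the scaling, the low-count filter, DESeq2, limma on log2 of the deposited normalised signal plus 1 or 10, age and library-code terms, the sequence forms counted and leaving out libraries. The share of miR-146b, the joint run and age terms and the fit without libraries under 15000000 counts were added after seeing the data. Versions were R 4.3.3, with edgeR 4.0.16, DESeq2 1.42.0 and limma 3.58.1, and Python 3.11.15, with SciPy 1.17.1, NumPy 2.4.6, pandas 2.3.3 and Matplotlib 3.10.9.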

Additional observations from a re-analysis of the deposited data

Results flagged for a closer look

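In 3 of the 30 groups of values examined, 1 pig stood apart from the rest of its group by more than the usual limit for such gaps, a limit that chance passes in about 1 of 20 groups. The groups overlap, since each class was read whole and split by sex. miR-132 was 32.3 CPM in low replicate 1, a female, with the next low pig at 52.3 CPM. miR-132 was 54.2 CPM in high replicate 4, a female, with the next high female at 75.5 CPM. miR-146b was 77.6 CPM in low replicate 4, a castrated male, with the next low castrated male at 134.5 CPM, and without that pig the miR-146b difference in castrated males had an edgeR adjusted p of 0.0573.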

How the results depend on the processing

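No paired analysis was possible because the labels give no replicate numbers. Those used here follow the order of the samples and pair no pigs, and the term for library-code runs is a covariate over unequal sets. Depth limits miR-212 most, and the 4 libraries under 15000000 counts all come from castrated males. The cause of the changes below was not tested. The number of miRNAs called moved widely: 8 over both sexes (0 to 13 when a library was left out, 22 with DESeq2, 0 without libraries under 15000000 counts) and 9 in castrated males (2 to 14, 13 with DESeq2, 0). limma moved the median log2 fold change of all miRNAs by over 0.1 in females (0.19) and in the interaction (-0.23).

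The miR-146b difference in castrated males was positive in every fit. It missed the threshold with limma plus 1 (1.74, adjusted p = 0.0503), exact matches alone (1.56, 0.133), without the runs AC485-AC488 (1.998, 0.251), U074-U077 (1.74, 0.0823) and U966-U969 (1.75, 0.0628) and without libraries under 15000000 counts (1.58, 0.461). Its values without 1 library were 1.64 to 2.11, and 15 of 18 passed.

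Over both sexes miR-146b passed with DESeq2 (1.18), the run term (1.35), run and age terms (1.53), no sex term (1.55) and without the run U134-U139 (1.61), and was 1.02 to 1.39 without 1 library, passing without high replicate 6 or low replicate 1. miR-132 passed with DESeq2 (0.48), all listings summed (0.56) and exact matches (0.68).

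Values near 0 changed sign. miR-146a-5p over both sexes became 0.0053 with the age term, 0.050 with all listings, 0.062 with exact matches, 0.13 with run and age terms, 0.049 with the run term, 0.099 and 0.098 with limma plus 1 and plus 10, 0.0068 without mismatched forms, 0.062 with no sex term, 0.063 without libraries under 15000000 counts, 0.12 without AC485-AC488 and 0.089 without U134-U139 (-0.125 to 0.097 without 1 library). miR-155-5p over both sexes became 0.042 with all listings, 0.28 with exact matches, 0.025 with limma at either pseudocount, 0.0066 without mismatched forms, 0.017 with no sex term and 0.059 without U966-U969 (-0.106 to 0.060 without 1 library). It became 0.033 in females with exact matches, -0.19 in castrated males without U134-U139 (-0.015 to 0.24 without 1 library) and -0.094 in the interaction without that run. The miR-132 interaction became -0.26 with limma at either pseudocount, -0.030 at a minimum mean of 10 CPM, -0.17 without libraries under 15000000 counts, -0.099 without AC485-AC488 and -0.046 without U074-U077 (-0.094 to 0.17 without 1 library). The miR-212 interaction became -0.49 and -0.27, and its castrated against female value 0.23 and 0.48, without libraries under 15000000 counts and without AC485-AC488 (-0.47 to 0.079 without 1 library for castrated against female).

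The share of miR-146b in castrated males differed by 9.34, 10.6, 16.9 and 10.1 percentage points without the runs AC485-AC488, U074-U077, U134-U139 and U966-U969 (exact permutation p = 0.4, 0.114, 0.0571 and 0.114), where 4 against 2 pigs, in the first, could not pass. Without 1 library the difference was 9.22 to 14.5 in castrated males (10 of 18 passed) and 2.15 to 4.04 in females (1 passed). Differences in the share of the most abundant form other than the annotated sequence were also refitted without 1 library. For miR-155-5p they ran from -0.47 to 1.03 over both sexes and from -2.75 to 0.25 in castrated males. In females they ran from -3.09 to 0.15 for miR-132 and from -0.63 to 0.44 for miR-146a-5p. The correlation of miR-146a-5p with miR-146b was 0.515 to 0.697 without 1 library (6 of 18 passed), that of miR-132 with miR-146b 0.364 to 0.683 (2 passed), and that of miR-132 with miR-146a-5p -0.087 to 0.159, and -0.29 after class, sex and run were removed.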
